A study of Mus musculus with 6 samples.

Results

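The enzymes that carry succinyl-CoA to oxaloacetate in the citric acid cycle were followed as 9 genes of the mouse spinal cord: Suclg1, Suclg2 and Sucla2 for succinyl-CoA ligase, Sdha, Sdhb, Sdhc and Sdhd for succinate dehydrogenase, Fh1 for fumarase and Mdh2 for mitochondrial malate dehydrogenase. The genes were chosen by name, and all 14 probes that carry one of these names on the array were taken, out of 41174 probes in all. Sdha and Sucla2 had 3 probes each, Suclg2 had 2, and each of the other 6 genes had 1. RNA came from the spinal cord of male C57BL/6 mice aged 8 weeks, in 3 Dhtkd1 null and 3 wild-type samples, each labelled with Cy3 and put on an array of its own. The labels call the first genotype dhtkd1 null or dhtkd1-/- and do not say how the allele was made or name any Cre or transgene. They number the samples without stating that each is a separate animal, so the p-values speak only of the spread among the numbered samples, which may be technical.

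The citric acid cycle runs in the mitochondrial matrix and feeds electrons to the respiratory chain. In the stretch followed here, succinyl-CoA ligase makes succinate while forming GTP or ATP, succinate dehydrogenase oxidises succinate to fumarate as complex II of the respiratory chain, fumarase adds water to give malate, and malate dehydrogenase regenerates oxaloacetate. Nervous tissue depends on this stretch: in people, inherited defects of succinyl-CoA ligase subunits cause an encephalomyopathy with loss of mitochondrial DNA, and defects of fumarase or of succinate dehydrogenase can cause severe encephalopathy in infancy. Dhtkd1 encodes the first component of a mitochondrial dehydrogenase complex that acts on 2-oxoadipate, an intermediate of lysine breakdown, and is related to the 2-oxoglutarate dehydrogenase that makes succinyl-CoA in the cycle. The comparison asks whether transcripts of the enzymes downstream of succinyl-CoA differ when Dhtkd1 is lost.

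The array carries probes of 60 bases, and 5 of those used here are shown: the alpha subunit of the ligase, the Suclg2 probe at which wild-type replicates 2 and 3 lie on opposite sides of the other arrays, the catalytic Sdha, and Sdhb and Fh1, whose probes join sequence across an intron. Each has at least 1 forward reading frame without a stop codon, and all letters are in lower case since no part of a probe is singled out.
Suclg1 A_51_P491227: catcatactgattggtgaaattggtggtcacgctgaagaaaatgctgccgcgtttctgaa
Suclg2 A_51_P478672: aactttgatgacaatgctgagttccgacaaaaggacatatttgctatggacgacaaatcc
Sdha A_52_P109503: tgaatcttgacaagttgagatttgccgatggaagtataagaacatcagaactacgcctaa
Sdhb A_51_P234853: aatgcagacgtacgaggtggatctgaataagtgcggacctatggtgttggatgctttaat
Fh1 A_51_P359333: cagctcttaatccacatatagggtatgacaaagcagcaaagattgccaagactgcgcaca

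On the mm9 genome that the files use, the Suclg1 probe lies at chr6:73221044-73221103 on the plus strand and the Suclg2 probe at chr6:95519645-95519704 on the minus strand. The Sdha probe lies at chr13:74465756-74465815 on the minus strand. The Sdhb probe (chr4:140522514-140527081, plus strand) and the Fh1 probe (chr1:177531659-177534089, minus strand) are placed over 4568 and 2431 bases of genome, more than the probe's own length, and the other 12 of the 14 probes are placed in 1 piece. The probes of the other genes are in Sdhc at chr1:173059657-173059716 and Sdhd at chr9:50404630-50404689, both on the minus strand, and in Mdh2 at chr5:136266157-136266216 on the plus strand. The Sdhc and Mdh2 probes and the dim Sdha probe have a stop codon in all 3 forward frames. The members sit on 7 chromosomes, and the GC content of their probes ran between 25.0% and 51.7%.

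Signals below are log2 of the processed intensity relative to the 75th percentile of the array, a level of 0 being that percentile, and they are comparable between arrays for 1 probe but not between probes. The 75th percentile was 950 to 1055 intensity units, and between 78.4% and 82.0% of an array's spots exceeded background clearly by the scanner's own flag. Probes with that flag on 3 or more of the 6 arrays were kept, 33208 in number. Of the 14 member probes 13 were kept, each well above background on all 6 arrays, and none was saturated on any array. The arrays fall on 2 slides, with all 3 null samples and wild-type replicate 2 on slide 1 and wild-type replicates 1 and 3 on slide 2, so each value is also given with slide as a block where that matters. That blocked difference equals the one within slide 1, which rests on wild-type replicate 2 alone, and slide 2 holds wild-type samples only.

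Dhtkd1 itself had a lower signal in null samples at both of its probes. Probe A_52_P319927 was at -4.05, -4.05 and -4.16 in null samples, against -2.91, -3.02 and -3.10 in wild-type samples, 2.11-fold lower. Probe A_52_P543079 was at -4.33, -3.43 and -4.03 in null samples, against -2.46, -3.16 and -2.97 in wild-type samples, 2.10-fold lower. The genotypes are apart at both probes, with adjusted p of 0.0923 and 0.514 by limma, and both stayed above background in every null sample. Which exons the null allele lacks is not given in the labels, so these signals cannot say how much full-length transcript is left. Markers of the cells of the cord were detected: all 8 oligodendrocyte, all 8 neuron and all 6 astrocyte markers were well above background on all 6 arrays. Skeletal muscle is not part of the cord, yet all 8 of its markers were also well above background on all 6 arrays. The source of that signal was not tested.

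No member of the stretch differed between the genotypes at the adjusted threshold. By limma with Benjamini-Hochberg adjustment over all 33208 kept probes, the 13 member probes had adjusted p of 0.536 to 0.991, and none of all kept probes passed at 0.05 (0%, lowest adjusted p 0.0923). The log2 differences of the members, null minus wild-type, lay between -0.32 and 0.080, that is, between 1.25-fold lower and 1.06-fold higher. At 12 of the 13 probes the 95% interval lay within a 1.5-fold change in either direction, the exception being Suclg2 A_52_P58181. With slide as a block the intervals were wider and passed that bound at Suclg2 A_51_P478672, Suclg2 A_52_P58181 and Sdhb. Their lower ends were then at -0.87, -0.81 and -0.79 in log2. The median SE of a member's log2 difference was 0.083, against 0.121 over all kept probes. Sdhc was the only member probe at an unadjusted p under 0.05, which makes 1 of 13, beside 8.21% of all kept probes (2.68% lower and 5.52% higher in null). With slide as a block it was 0 of 13, beside 7.33% of all kept probes. Since the cord was taken whole, fewer cells of a type and less RNA per cell cannot be told apart here.

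**Figure D1:**
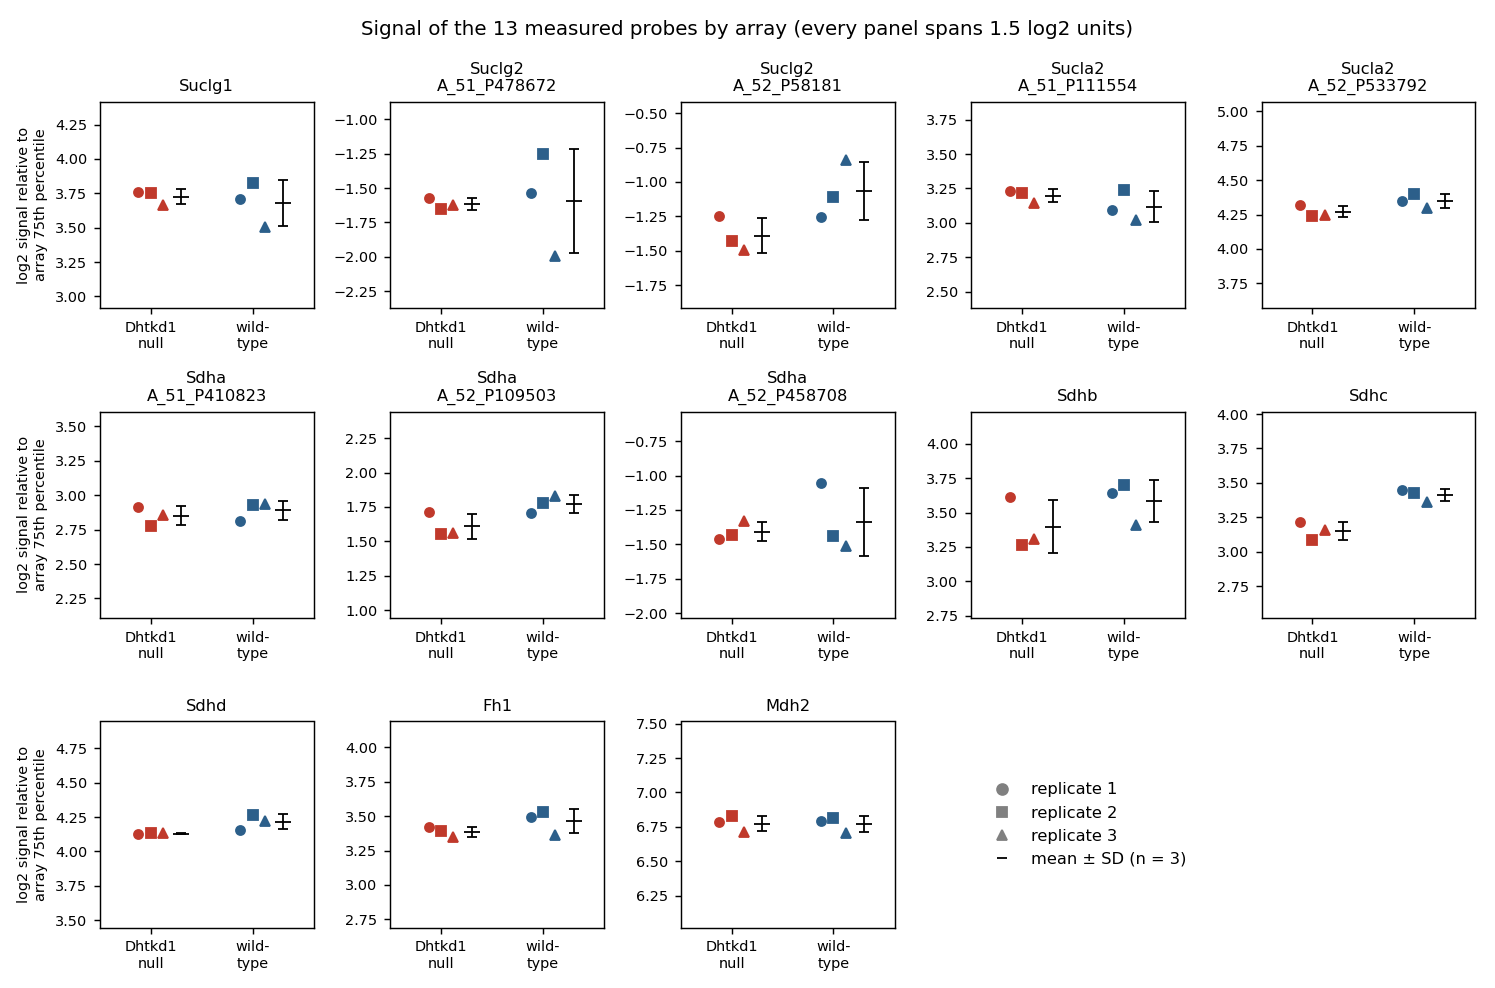
Log2 signal of each of the 13 measured member probes, relative to the 75th percentile of the array, in 3 Dhtkd1 null (red, left) and 3 wild-type (blue, right) samples. Marker shapes give the replicate number, black bars the mean and SD, and every panel spans 1.5 log2 units. The groups are apart at Sdhc and Sdhd and overlap at the other 11 probes.

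Succinyl-CoA ligase consists of an alpha subunit, Suclg1, joined to a beta subunit that sets the nucleotide: Suclg2 for GDP and Sucla2 for ADP. Suclg1 was at 3.76, 3.75 and 3.66 in null samples, against 3.71, 3.83 and 3.50 in wild-type samples. The null values lie inside the wild-type range. Null minus wild-type was 0.046 in log2 (SE 0.104, 95% interval -0.21 to 0.30), with an adjusted p of 0.906 by limma, and with slide as a block it was -0.10.

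Suclg2, the GDP-dependent beta subunit, differed in its pattern over the arrays between its probes, which lie 94874 bases apart on chromosome 6. Probe A_52_P58181 (chr6:95424712-95424771) was at -1.25, -1.43 and -1.50 in null samples, against -1.25, -1.11 and -0.84 in wild-type samples. Null replicate 1 and wild-type replicate 1 meet there, and the other null samples are the lowest of all. Its log2 difference of -0.32 (SE 0.134, 95% interval -0.65 to 0.0043), or 1.25-fold lower, was the largest in size among the members, at an unadjusted p of 0.0522 and an adjusted p of 0.611 by limma. It stayed between -0.42 and -0.21 with any 1 array left out and was -0.28 with slide as a block.

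The other Suclg2 probe, A_51_P478672, was at -1.57, -1.65 and -1.62 in null samples, against -1.54, -1.25 and -2.0 in wild-type samples. The null samples agree closely at this probe and fall inside a wide wild-type range. The log2 difference was -0.021 (SE 0.191, 95% interval -0.49 to 0.45) and its interval was the widest of the members. It was -0.37 with slide as a block, where wild-type replicate 2, the highest wild-type sample, stands alone for its group. Wild-type replicate 3 set the probes apart, being the highest of all 6 arrays at A_52_P58181 and the lowest at A_51_P478672. In that array the second probe lay 1.16 log2 units below the first, against 0.13 to 0.33 units in null samples and 0.14 and 0.28 units in the other wild-type samples.

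Sucla2, the ADP-dependent beta subunit, was measured by a pair of probes within 1 kb of each other on chromosome 14 (plus strand). Probe A_52_P533792 (chr14:73995311-73995370) was at 4.32, 4.24 and 4.25 in null samples, against 4.35, 4.40 and 4.30 in wild-type samples. Probe A_51_P111554 (chr14:73995798-73995857) was at 3.23, 3.22 and 3.14 in null samples, against 3.09, 3.24 and 3.02 in wild-type samples. The groups overlapped at both. The log2 difference was -0.079 (SE 0.071, 95% interval -0.25 to 0.094) at the first and 0.080 (SE 0.087, 95% interval -0.13 to 0.29) at the second, so the signs are opposite and each interval holds 0. The remaining probe, A_52_P762514, lies 38755 bases nearer the 5' end of the gene and was well above background on 0 of 3 null and 0 of 3 wild-type arrays, so it gives no fold.

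For succinate dehydrogenase, 6 of 6 probes of its 4 subunit genes had a lower mean in null samples, with a median log2 difference of -0.12. Only Sdhc reached an unadjusted p under 0.05, and 5 of the 6 were lower with slide as a block. Of all kept probes 41.8% had a lower mean in null samples, and probes of 1 gene are not independent of each other.

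Sdhc, a membrane anchor of the enzyme that helps bind ubiquinone, was at 3.21, 3.08 and 3.16 in null samples, against 3.45, 3.42 and 3.36 in wild-type samples. Every null sample lies below every wild-type sample. The log2 difference was -0.26 (SE 0.074, 95% interval -0.44 to -0.080), or 1.20-fold lower, with an unadjusted p of 0.0126 and an adjusted p of 0.536 by limma. An exact two-sided permutation test gave a p of 0.1, the smallest that 3 against 3 samples allow. The difference was -0.27 with slide as a block (95% interval -0.56 to 0.015) and kept its direction, between -0.29 and -0.23, with any 1 array left out.

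Sdhd, the other membrane anchor, was at 4.12, 4.13 and 4.13 in null samples, against 4.16, 4.27 and 4.22 in wild-type samples. The groups are apart here too, by a narrow gap, and the null samples have an SD of 0.0054. The log2 difference was -0.086 (SE 0.069, 95% interval -0.26 to 0.084), 1.06-fold lower, with an adjusted p of 0.75 by limma. Sdhc and Sdhd make 2 of 13 member probes with all null samples below all wild-type samples, beside 4.85% of all kept probes, and 0 of 13 had all null samples above, beside 9.5%.

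Sdhb, the iron-sulfur subunit that passes electrons from the flavin to ubiquinone, was at 3.62, 3.27 and 3.31 in null samples, against 3.64, 3.70 and 3.41 in wild-type samples. Null replicate 1 lies among the wild-type samples, while null replicates 2 and 3 are below all of them. Null minus wild-type was -0.19 in log2 (SE 0.132, 95% interval -0.51 to 0.14), with an adjusted p of 0.719 by limma. It was -0.30 without null replicate 1, -0.12 without null replicate 2 and -0.30 with slide as a block.

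Sdha, the flavoprotein that holds the site where succinate is oxidised, had 3 kept probes. Probe A_52_P109503 was at 1.71, 1.55 and 1.56 in null samples, against 1.71, 1.78 and 1.83 in wild-type samples. Null replicate 1 again lies beside wild-type replicate 1, and the log2 difference was -0.16 (SE 0.083, 95% interval -0.37 to 0.039), with an unadjusted p of 0.0954 and an adjusted p of 0.644 by limma. Probe A_51_P410823 (chr13:74460146-74460205, minus strand), nearer the 3' end, was at 2.92, 2.78 and 2.85 in null samples, against 2.81, 2.93 and 2.94 in wild-type samples. Its groups overlap widely, with a log2 difference of -0.043 (SE 0.079).

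The remaining Sdha probe, A_52_P458708 (chr13:74486662-74486720, minus strand), was designed on a cerebellar cDNA clone rather than the RefSeq transcript and lies 20847 bases nearer the 5' end than A_52_P109503. It was at -1.46, -1.43 and -1.33 in null samples, against -1.06, -1.44 and -1.51 in wild-type samples. Wild-type replicate 1 stands apart as the highest. The log2 difference was -0.070 (SE 0.137), 0.070 without wild-type replicate 1 and 0.034 with slide as a block.

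Within each array, the signal of 1 probe of a gene was also set against another probe of the same gene, for the 5 pairs that Suclg2, Sucla2 and Sdha allow. For Sucla2, probe A_51_P111554 lay 1.07 ± 0.042 log2 units below A_52_P533792 in null samples and 1.23 ± 0.067 units below it in wild-type samples (SD, n = 3 each). For Sdha, probe A_51_P410823 lay 1.24 ± 0.047 log2 units above A_52_P109503 in null samples and 1.12 ± 0.023 units above it in wild-type samples. The groups did not overlap in these 2 of 5 pairs, beside 11.3% of 17523 pairs of kept probes of a gene over the whole array, by an exact two-sided permutation p of 0.1 each, the smallest possible, and 0.25 adjusted over the 5 pairs. The other 3 pairs overlapped, and the 3 Sdha pairs share probes with each other.

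Fumarase, encoded by Fh1, acts both in mitochondria and in the cytosol. Fh1 was at 3.42, 3.39 and 3.35 in null samples, against 3.50, 3.53 and 3.36 in wild-type samples. The null samples sit at the low end of the wild-type range, with a log2 difference of -0.079 (SE 0.079, 95% interval -0.27 to 0.11) and an adjusted p of 0.788 by limma. Mdh2, which also serves the shuttle that carries reducing equivalents into mitochondria, was at 6.78, 6.83 and 6.71 in null samples, against 6.80, 6.81 and 6.71 in wild-type samples. These values are nearly the same set, and the log2 difference of 0.0035 (SE 0.075) has a 95% interval of -0.18 to 0.19, that is, up to 1.13-fold lower or 1.14-fold higher.

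**Figure D2:**
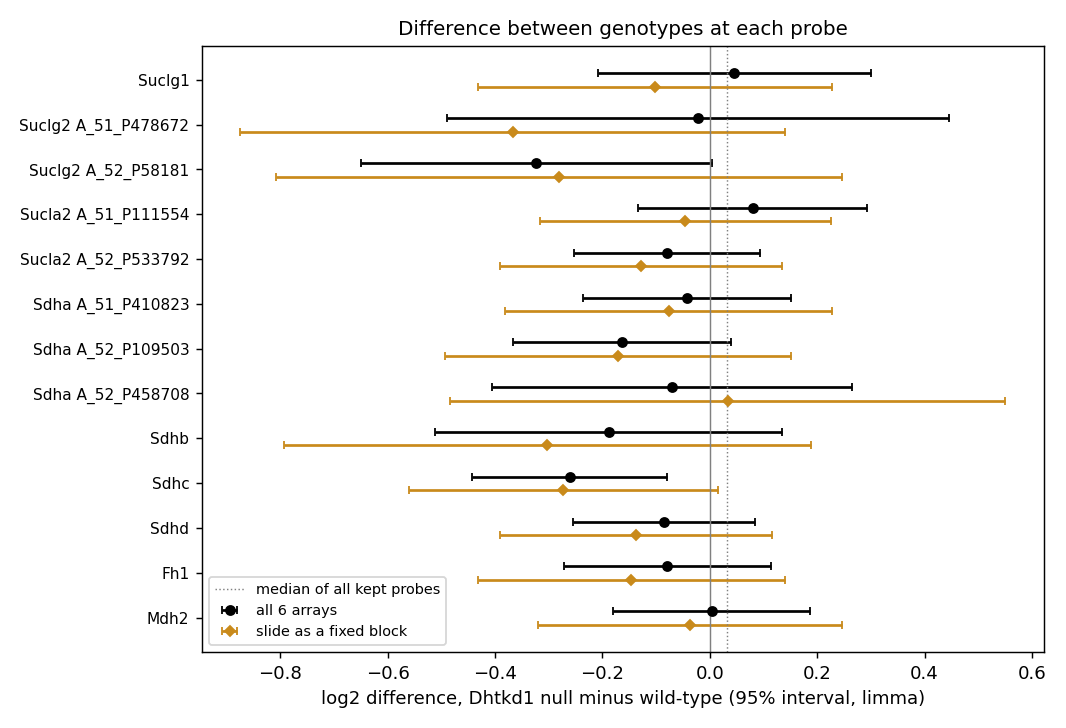
Log2 difference, Dhtkd1 null minus wild-type, at each of the 13 kept member probes, with 95% intervals from limma, over all 6 arrays (black circles) and with slide as a fixed block (orange diamonds). Kept probes are those above background on 3 or more of the 6 arrays, and the dotted line is the median of all kept probes, 0.033. The interval of Sdhc over all 6 arrays, -0.44 to -0.080, is the only one that does not hold 0.

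Across the stretch, 10 of 13 kept probes (76.9%) had a lower mean in null samples, beside 41.8% of all kept probes, and the median log2 difference was -0.079, beside 0.033 over all kept probes. With slide as a block 12 of 13 (92.3%) were lower, beside 48% of all kept probes, and the median was -0.14 beside 0.010. That blocked comparison rests on wild-type replicate 2 alone in its group. Without wild-type replicate 2, 9 of 13 were lower, beside 40.1% of all kept probes, and the median was -0.055 beside 0.043. The count of lower members was 12 with each array centred on its median, beside 54.3% of all kept probes, and 10 with quantile normalization, beside 49.7%. With 1 array left out it was 8 to 12, the lowest without wild-type replicate 1, beside 40.1% to 48.2% of all kept probes. The median of all kept probes depends on how arrays are scaled, being 0.0012 with quantile normalization and -0.018 with median centring. Quantile normalization also moved the split of all probes at an unadjusted p under 0.05, to 1360 lower and 1266 higher in null, against 891 lower and 1834 higher with the scaling used here.

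The arrays also differed in how they stood over the members. Wild-type replicate 2 was the highest array at 7 of the 13 probes and the lowest at 0, and the median deviation of the members from their means over all arrays was 0.094 there. Wild-type replicate 3 was the lowest at 5 probes and the highest at 3, and had a median deviation of -0.062, where all kept probes were at -0.068. Among null samples the median deviation was 0.0099 in replicate 1, -0.058 in replicate 2 and -0.059 in replicate 3, so null replicate 1 lay above wild-type replicate 3. All kept probes were at 0.035, 0.011 and 0.0087 in null replicates 1, 2 and 3. They were at 0.014 and 0.0072 in wild-type replicates 1 and 2, where the members were at 0.023 and 0.094. Beside all kept probes of the same array, the members lay lower in every null sample and higher in every wild-type sample, narrowly in wild-type replicate 3. That contrast was not tested. Null replicate 2 was the lowest array at 5 probes.

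**Figure D3:**
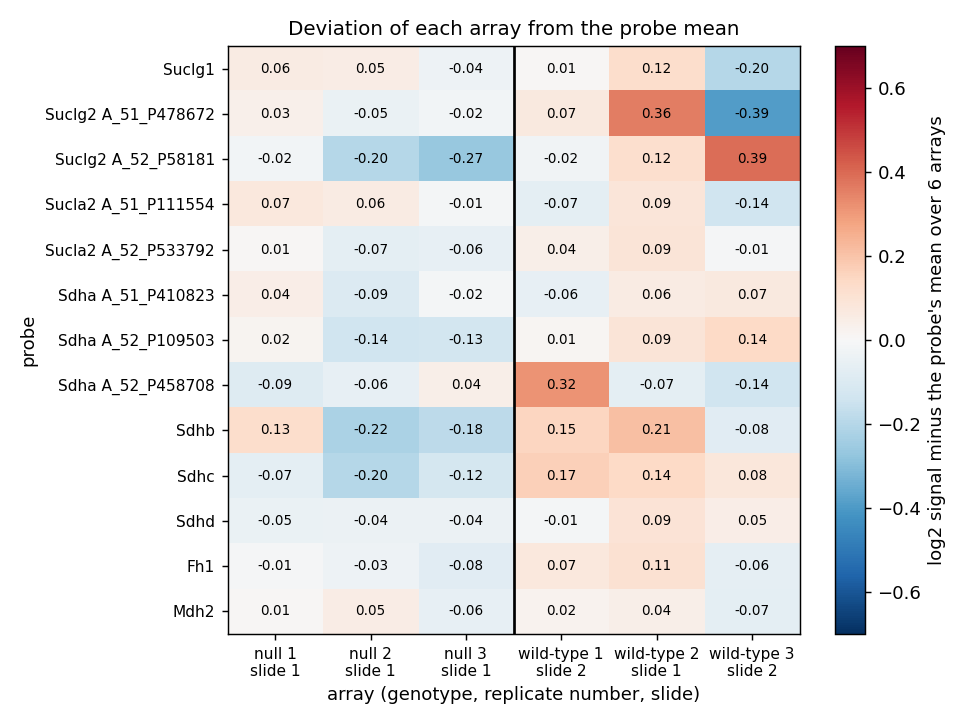
Log2 signal of each array minus the mean of the probe over all 6 arrays, for the 13 kept member probes (rows) in 3 Dhtkd1 null arrays (left of the line) and 3 wild-type arrays (right), with the slide under each array. Red is above and blue below the probe mean. Wild-type replicate 2 is above the mean at 12 of 13 probes, and wild-type replicate 3 is split at the Suclg2 probes, at -0.39 and 0.39.

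Cell type markers moved between arrays as well. The level summed over the 8 oligodendrocyte markers, in multiples of the 75th percentile, was 501 to 561 in null samples and 487 to 604 in wild-type samples, the highest in wild-type replicate 2. Over the 8 neuron markers it was 282 to 315 in null samples and 291 to 340 in wild-type samples, again highest in wild-type replicate 2. Skeletal muscle, a tissue rich in mitochondria, spread widely: its 8 markers summed to 35.3 to 41.5 in null samples and to 25.3, 64.3 and 9.87 in wild-type replicates 1, 2 and 3. Its 13 kept probes had a median log2 difference of 0.63, and -0.76 with slide as a block. The median also changed sign for adipocyte (0.75, and -0.81 with slide as a block) and Schwann cell probes (-0.76 and 0.74). It kept its sign for leukocyte (0.91 and 0.86), red cell (0.73 and 1.02), microglia (0.20 and 0.074) and neuron probes (0.033 and 0.054). So it did for oligodendrocyte (-0.15 and -0.50) and astrocyte probes (-0.087 and -0.24). By limma, 3 of 10 leukocyte and 3 of 11 microglia probes were higher in null samples at an unadjusted p under 0.05. So were 1 of 3 red cell and 1 of 19 neuron probes, beside 5.52% of all kept probes. At that level 1 of 16 oligodendrocyte, 1 of 15 astrocyte and 1 of 5 Schwann cell probes were lower, beside 2.68%. Of skeletal muscle and adipocyte probes 0 reached that level. For microglia, 7 of 7 markers were detected, with sums of 14.9 to 17.0 in null samples and 10.3 to 15.1 in wild-type samples. Astrocyte sums were 88.5 to 111 in null samples and 91.9 to 120 in wild-type samples, and adipocyte sums 2.51 to 5.59 in null samples and 1.77 to 4.36 in wild-type samples. Leukocyte sums were 40.8 to 157 in null samples and 27.7 to 61.0 in wild-type samples. Red cell sums, over the 3 of 4 listed markers on the array, were 49.96 to 79.6 in null samples and 35.1 to 67.4 in wild-type samples. The genotypes overlapped in both. Schwann cell sums were 17.1 to 39.9 in null samples and 23.6 to 109 in wild-type samples, the highest in wild-type replicate 1. No list had a measured marker at or below background on every array. The part of these differences in the member values was not tested.

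The genes next to the stretch were followed in lists, and none of their probes passed the adjusted threshold. For comparison, 41.8% of all kept probes had a lower mean in null samples and 8.21% reached an unadjusted p under 0.05 by limma. Their median log2 difference was 0.033, or 0.010 with slide as a block. In the stretch itself 10 of 13 probes were lower, with medians of -0.079 and -0.14. In the first part of the cycle, from citrate synthase (Cs) to 2-oxoglutarate dehydrogenase, 12 of 16 probes of 9 genes had a lower mean in null samples, 0 reached an unadjusted p under 0.05, and the median log2 difference was -0.032, or -0.11 with slide as a block. Among assembly factors of succinate dehydrogenase, 4 of 8 probes were lower, 0 at an unadjusted p under 0.05, with a median of -0.0048, or -0.036 with slide as a block. Sdhaf1, which helps to put the iron-sulfur clusters into Sdhb, was at 1.53, 1.5 and 1.43 in null samples, against 1.57, 1.71 and 1.65 in wild-type samples, with a log2 difference of -0.16 (SE 0.077) and an adjusted p of 0.635 by limma. Sdhaf2, which helps to attach the flavin to Sdha, differed by 0.12 (SE 0.092) at its probe of smallest p, which was at -0.024 with slide as a block, and 2 of its other 3 probes were lower, at -0.047 and -0.072.

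Among other routes into succinyl-CoA or succinate, 7 of 13 probes were lower, beside 41.8% of all kept probes. Their median was -0.0089, or -0.063 with slide as a block, and none reached an unadjusted p of 0.05, beside 8.21% of all kept probes. Aldh5a1, which turns succinic semialdehyde from GABA into succinate, differed by 0.38 (SE 0.188) at a dim probe and by -0.082 (SE 0.111) at a bright one, and Pcca, a subunit of propionyl-CoA carboxylase, by -0.15 (SE 0.118). Among related genes (Idh1, Idh2, Aco1 and Sucnr1), 4 of 5 probes were lower, with a median of -0.19, or -0.31 with slide as a block. Aco1, the cytosolic aconitase, was at an unadjusted p of 0.0308 by limma at 1 probe, with a log2 difference of -0.22 (SE 0.077). The other Aco1 probe differed by -0.091 (SE 0.104), with overlap. Sucnr1, the receptor for succinate outside cells, differed by -0.98 (SE 0.404, unadjusted p 0.0524, adjusted p 0.610 by limma). Its probe was dim, at -5.54, -5.30 and -6.32 in null samples, against -4.07, -4.79 and -5.37 in wild-type samples, with overlap.

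Genes that handle malate, oxaloacetate and citrate beyond the cycle step had 16 of 23 probes lower, beside 41.8% of all kept probes. Their median was -0.025, or -0.11 with slide as a block. At an unadjusted p under 0.05 there were 2 lower and 2 higher, beside 2.68% lower and 5.52% higher of all kept probes. Slc25a13, a mitochondrial aspartate-glutamate carrier of the malate-aspartate shuttle, was at 0.71, 0.67 and 0.67 in null samples, against 0.10, 0.36 and 0.23 in wild-type samples. All null samples lie above all wild-type samples, with a log2 difference of 0.45 (SE 0.089, adjusted p 0.378 by limma). Me1, the cytosolic malic enzyme that makes NADPH, was at 1.01, 0.94 and 0.63 in null samples, against 1.11, 1.54 and 1.51 in wild-type samples, a log2 difference of -0.52 (SE 0.161, adjusted p 0.551 by limma), with no overlap; its other probe differed by -0.35 with overlap. Slc25a1, the mitochondrial citrate carrier, differed by -0.37 (SE 0.122) and Pck2, the mitochondrial phosphoenolpyruvate carboxykinase, by 0.21 (SE 0.084).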

How the data were processed

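The deposited scanner files hold spot intensity read by Feature Extraction version 10.7.3.1 from an Agilent array of design 014868 with mm9 positions, per the file headers. The processed intensity they give had background removed and was detrended in each array by that program. The deposited value table is in log2 units by a method not stated in the sources used here. Its columns share their quantiles (median 7.22) and follow the log2 intensity of their own array with r of 0.9997 or more, so it was read as quantile normalized and served as an alternative.

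Signals were log2 processed intensity minus the 75th percentile of each array's non-control spots. Outlier spots (58 to 89 per array) were left out, repeated spots averaged, and a probe counted as well above background if any of its spots was. Each kept probe was fitted with limma 3.58.1 in R 4.3.3 (lmFit, eBayes), null minus wild-type with no covariate, and Benjamini-Hochberg adjustment over 33208 probes. The fit was tested on simulated data with independent noise at each probe and no slide effect, so that test does not cover the slide imbalance. The number of arrays limits the precision. Other lists were named through accessions, symbols or synonyms in a RefSeq table. Every member probe was named, with Dhtkd1, and from each neighbouring list the 2 probes of smallest p, plus others where a count of 5 or fewer needed it; the probes this names in the first part of the cycle are not reported here. From marker lists the sum over the brightest probe of each gene was taken. The members and lists were chosen with earlier results of these data known.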

Additional observations from a re-analysis of the deposited data

How the results depend on the processing

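Each member difference was recomputed under up to 19 alternatives, 243 values in all, of which 226 kept their direction and none passed the adjusted threshold (lowest adjusted p 0.345 by limma). Part of that count was fixed in advance. Other filters, the replicate block, the trend and robust options and a single probe per gene alter only the p-value, not the difference. Keeping outlier spots left the members' differences unchanged, slide 1 alone repeats the slide block, and the deposited table lies close to quantile normalization. The median of the members stayed between -0.14 and -0.055 and 8 of 13 probes kept their direction throughout, among them Sdhc (-0.31 to -0.23), Sdhb, Sdhd and Suclg2 A_52_P58181. Signs turned at 5 probes. With slide as a fixed block, and equally within slide 1 alone, they were -0.045 for Sucla2 A_51_P111554, -0.037 for Mdh2, -0.10 for Suclg1 and 0.034 for Sdha A_52_P458708. With median centring they were -0.048 for Mdh2 and -0.0052 for Suclg1. With 1 array left out, Mdh2 ranged from -0.029 to 0.034, Suclg1 from -0.042 to 0.12, Suclg2 A_51_P478672 from -0.22 to 0.15 and Sdha A_52_P458708 from -0.16 to 0.070. These differences were at most 0.080 in size to begin with, and the cause was not tested.

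Over all kept probes 0 passed the adjusted threshold, against 1 with normexp background correction, 7 with the trend and robust options and 0 to 4 with 1 array left out. Probes at an unadjusted p under 0.05 numbered 2725, and 1774 to 4281 with 1 array left out (1774 without null replicate 2 or null replicate 3, 4281 without wild-type replicate 1). Of the members, 1 of 13 was at that level, against 3 with normexp, 2 with a filter on all 6 arrays and 2 with trend and robust. Over all probes of those 3 fits it was 2777 of 33208, 2645 of 31261 and 2724 of 33199. The count of members was 0 with slide as a fixed block and 0 to 2 with 1 array left out, 0 being without null replicate 2. Among all 2725 probes at that level 32.7% were lower, against 51.8% with quantile normalization, 51.8% with the deposited table and 50.2% with median centring. Both genotypes carry replicate numbers 1 to 3. Deviations of same-numbered samples correlated at -0.025, -0.089 and 0.30 across probes, and those of differently numbered samples at -0.20 to 0.24. These correlations cannot settle whether samples were paired, and the numbers were not taken as pairs. With the replicate block 2542 probes and 1 member probe were at an unadjusted p under 0.05.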
